A study of Mus musculus with 12 samples.

Results

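The genes described here are 9 that are commonly named for the suprachiasmatic nucleus, the paired cell group above the optic chiasm that holds the master circadian clock of mammals. They were found by symbol in the table of normalized CPM, the read count of a gene scaled to the depth of its library, and all 9 are among its 32494 genes. They are the transcription factors Six6, Six3, Lhx1 and Rorb, the secreted peptides Vip, Prok2, Nms and Grp, and the receptor Vipr2.

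The libraries came from the hypothalamus of 12 male mice. All 12 carried floxed Smc3 and were given tamoxifen. Smc3 encodes a core subunit of the cohesin ring. The 7 mice labelled WT lacked the Camk2a-cre/ERT2 transgene and the 5 labelled cKO carried it. That transgene makes a tamoxifen-activated recombinase under the Camk2a promoter, which is active mainly in forebrain excitatory neurons. Tissue was taken 5 weeks after tamoxifen. The mice are given as 8 weeks old, and whether that was at tamoxifen or at sampling is not given. The titles of both groups carry the word control. The time of day of sampling is not given in the sources used here.

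Neurons of the suprachiasmatic nucleus are GABAergic and keep time by a loop in which clock proteins repress their own genes. Light reaches the ventral core, where many cells make vasoactive intestinal peptide (Vip) or gastrin-releasing peptide (Grp). Vip acts on its receptor VPAC2, the product of Vipr2, to keep the clock cells in step with each other. Prok2 and Nms encode prokineticin 2 and neuromedin S, further peptides of clock neurons, and Prok2 carries clock output to other brain areas. Six6, Six3 and Lhx1 are homeodomain factors needed to form the nucleus or to keep its peptides expressed, and Rorb is a nuclear receptor of the clock feedback loop. Outside the nucleus, Vip and Grp are also made by cortical neurons, Rorb by cortical and thalamic neurons, and Six3 by other ventral forebrain neurons. That list is not complete, and none of the members, Vipr2 and Lhx1 included, is taken here as confined to the nucleus.

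The 250 bases before the start of 3 of the genes are shown because each bears on a result below. Prok2 had the most uneven values of the peptides, Vip is the peptide that most defines the nucleus, and Vipr2 was the only member past the test between groups. The sequences are RefSeq's for mouse build GRCm38.p6 and are written 5′ to 3′ on the strand of the gene. They lie at chr6:99726393-99726642 (minus strand, Prok2), chr10:5638968-5639217 (plus strand, Vip) and chr12:116077476-116077725 (plus strand, Vipr2). Capitals mark matches to the E-box CACGTG, bound by clock factors, or to the cAMP response half-site TGACG.
Prok2: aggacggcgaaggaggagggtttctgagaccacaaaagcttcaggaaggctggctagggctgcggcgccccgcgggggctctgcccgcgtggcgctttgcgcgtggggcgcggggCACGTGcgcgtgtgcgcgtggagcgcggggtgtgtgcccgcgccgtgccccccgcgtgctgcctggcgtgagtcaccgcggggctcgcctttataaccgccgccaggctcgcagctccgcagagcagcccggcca
Vip: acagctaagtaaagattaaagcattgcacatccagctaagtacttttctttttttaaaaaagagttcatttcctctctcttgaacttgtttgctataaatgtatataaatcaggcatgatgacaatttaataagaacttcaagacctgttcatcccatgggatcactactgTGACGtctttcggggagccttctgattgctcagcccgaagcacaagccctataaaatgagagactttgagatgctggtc
Vipr2: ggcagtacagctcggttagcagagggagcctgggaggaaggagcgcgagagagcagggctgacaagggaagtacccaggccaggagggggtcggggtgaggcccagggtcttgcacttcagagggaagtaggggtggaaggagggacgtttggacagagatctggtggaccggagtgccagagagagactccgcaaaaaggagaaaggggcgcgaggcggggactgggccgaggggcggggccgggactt

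Both strands were searched for these letters, for the full cAMP response element TGACGTCA (which holds the half-site), the D-box TTATGTAA and the ROR response element. A promoter was listed for 8 of the 9 members. The E-box of Prok2 began 135 bases before the start, and 6.02% of 32851 windows of this length hold an E-box. TGACG was found in Vip, 79 bases before the start, and in Lhx1, 50 bases before it, and 17.8% of windows hold it. None of these letters were found in the windows of Six6, Six3, Rorb, Nms or Vipr2. The full element is in 1.55% of windows, the D-box in 0.819% and the ROR element in 0.493%.

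Depth recovered from the CPM steps was 68.7M reads for WT 1 and between 17.1M and 24M for each of the other 11 libraries. The floor was set at 3 reads, which is 0.0436 to 0.178 CPM, and it covers counting error only, since the reads carry no molecular identifiers. Smc3, the floxed gene, went against the labels. It was at 76.8 to 85.7 CPM in the libraries labelled WT and at 116 to 144 CPM in those labelled cKO, and directions here refer to the labels. All 10 markers of the thalamus were above the floor in every library. All 15 markers of other hypothalamic nuclei were detected, but not in every library. Nr5a1 was at or under the floor in 4 libraries and Fezf1 in 2. WT 4, WT 5, cKO 12 and cKO 13 stood apart from the rest. Their Oxt, the oxytocin gene of the paraventricular and supraoptic nuclei, was at 1.33, 0.651, 0.280 and 2.33 CPM, against 69.5 to 348 CPM in the other 8. Their Avp, the vasopressin gene of those nuclei and of the suprachiasmatic shell, was at 6.46, 1.67, 0.793 and 0.855 CPM, against 29.0 to 125 CPM. Myelin markers, summed over 8 genes, were at 8893 to 10190 CPM in these 4 and at 4211 to 7108 CPM in the others.

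Levels of different genes were compared as mean CPM per kilobase of annotated exon over the 12 libraries. Six3 was highest at 5.23 ± 2.90 CPM per kb (SD, n = 12), followed by Rorb at 4.11 ± 1.05, Grp at 3.24 ± 1.31, Lhx1 at 2.78 ± 0.829 and Vipr2 at 2.01 ± 0.808. Vip was at 0.618 ± 0.301 CPM per kb, Six6 at 0.495 ± 0.454, Nms at 0.453 ± 0.196 and Prok2 at 0.338 ± 0.484. Each gene overlapped the next in this order over the libraries, and Six3 was above Rorb in 6 of 12 of them. The clearest step was from Vipr2 to Vip, where Vipr2 was above Vip in 11 of 12 libraries. Vip, Prok2 and Nms had a mean under 1 CPM, the minimum for the test across genes, so 6 of the 9 members entered it.

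**Figure D1:**
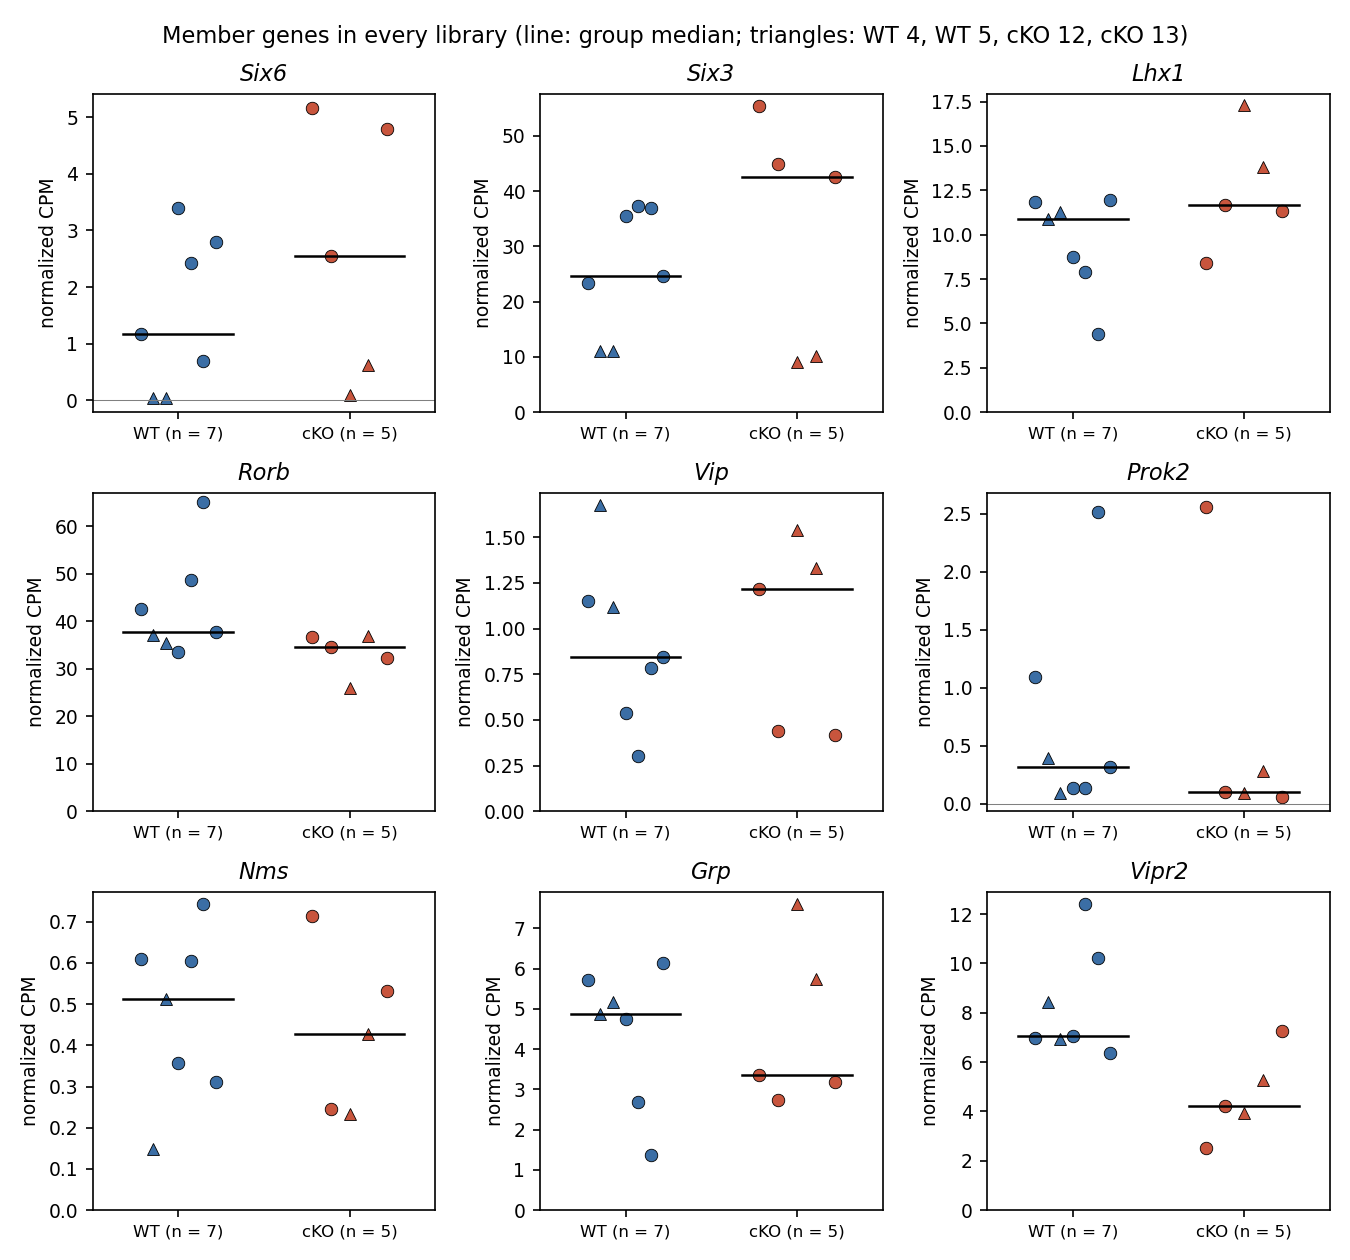
Normalized CPM of the 9 member genes in each library labelled WT (blue, n = 7) or cKO (red, n = 5), each panel on its own linear axis; the line is the group median and triangles are WT 4, WT 5, cKO 12 and cKO 13. Six6 and Six3 are lowest in the triangles of both groups, Prok2 is carried by WT 11, cKO 8 and WT 1, and the groups separate most for Vipr2, with cKO 14 at 7.28 CPM inside the WT range.

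Six6 and Six3 are sister homeodomain factors of the anterior forebrain. Six6 ran from 0.0465 CPM to a median of 1.18 and a highest value of 3.40 CPM in the libraries labelled WT. In those labelled cKO it was at 5.16 (cKO 8), 2.55 (cKO 9), 0.0933 (cKO 12), 0.617 (cKO 13) and 4.79 CPM (cKO 14). WT 4 and WT 5 held 1 read of Six6 each and cKO 12 held 2, all under the floor, while the other 9 libraries held 13 to 123. Both groups thus had libraries with almost no Six6 and libraries with several CPM, and their ranges overlapped.

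Six3 ran from 11 CPM (WT 4) to a median of 24.6 and a highest value of 37.2 CPM (WT 7) in the libraries labelled WT. In those labelled cKO it was at 55.3, 44.9, 9.14, 10.1 and 42.6 CPM in cKO 8, 9, 12, 13 and 14. Its values fell into separate sets, with 4 libraries at 9.14 to 11.1 CPM and 8 at 23.3 to 55.3 CPM. The low set was WT 4, WT 5, cKO 12 and cKO 13, the same libraries that were low in Oxt and Avp. Neither gene passed the test between groups. The limma log2 fold change, on log2(CPM + 1), was 0.44 for Six6 (95% interval -0.61 to 1.49, adjusted p 0.581) and 0.13 for Six3 (95% interval -0.90 to 1.15, adjusted p 0.887). Without those 4 libraries, leaving 5 labelled WT and 3 labelled cKO, Six3 was higher by 0.60 (SE 0.17, limma adjusted p 0.0485) and Six6 was at 0.78 (SE 0.31, adjusted p 0.129). In that fit 10.3% of all tested genes passed. The 4 libraries left out are the low set of Six3's own values and the lowest in Six6. That fit thus selects on the values it tests and cannot decide either difference. The direction of both genes turned with a hypothalamus marker score as a covariate, to -0.24 for Six3 and -0.0033 for Six6. A thalamus marker score as the covariate put Six3 at 0.71 (adjusted p 0.432) and Six6 at 0.65 (adjusted p 0.534), and a cortical score put Six3 at 0.31 (adjusted p 0.713).

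Lhx1, a LIM homeodomain factor, ran from 4.42 CPM (WT 11) to a median of 10.9 and a highest value of 12 CPM in the libraries labelled WT. It was at 8.39, 11.7, 17.3, 13.8 and 11.4 CPM in cKO 8, 9, 12, 13 and 14. The highest values were those of cKO 12 and cKO 13, where Six6 and Six3 were low, and the groups overlapped. The limma log2 fold change was 0.37 (95% interval -0.08 to 0.83, adjusted p 0.251). With a thalamus marker score as a covariate it was -0.041.

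Rorb, the nuclear receptor, ran from 33.5 CPM (WT 6) to a median of 37.7 and a highest value of 65.1 CPM (WT 11) in the libraries labelled WT. It was at 36.7, 34.7, 25.9, 36.9 and 32.3 CPM in cKO 8, 9, 12, 13 and 14. The other 9 libraries of both groups lay between 32.3 and 42.6 CPM, with WT 7 and WT 11 above and cKO 12 below. The limma log2 fold change was -0.33 (95% interval -0.64 to -0.02, unadjusted p 0.0385, adjusted p 0.138), and with the thalamus score it was -0.023 (SE 0.11).

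Vip ran from 0.303 CPM (WT 7) to a median of 0.845 and a highest value of 1.68 CPM (WT 4) in the libraries labelled WT. It was at 1.22, 0.441, 1.54, 1.33 and 0.414 CPM in cKO 8, 9, 12, 13 and 14. These values rested on 7 to 79 reads a library. The 3 highest values, in WT 4, cKO 12 and cKO 13, were in libraries of the low Six3 set, and WT 5 of that set was at 1.12 CPM. The Vip transcript was thus not low where Six6, Six3 and Avp were low. Which cells it came from was not tested. The means of log2(CPM + 1) were 0.904 in the libraries labelled WT and 0.948 in those labelled cKO, a difference of 0.044 (two-sided exact permutation p 0.846).

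Prok2 ran from 0.0930 CPM (WT 5) to a median of 0.311 and a highest value of 2.52 CPM (WT 11) in the libraries labelled WT. It was at 2.56, 0.0980, 0.0933, 0.285 and 0.0592 CPM in cKO 8, 9, 12, 13 and 14. Reads numbered 61 in WT 11, 61 in cKO 8 and 75 in the deeper WT 1, and 1 to 8 in the other 9 libraries, of which 6 were at or under the floor. Prok2 was thus high in a library of each group, and the difference of -0.097 had an exact permutation p of 0.742. Among cortical markers, Tbr1 was highest in the same libraries, at 13.8 CPM in WT 11 and at 13.1 CPM in cKO 8. Neurod6, another cortical marker, was instead lowest there, at 0.330 and 0.336 CPM. Summed over its 10 genes, the cortical list was at 538 CPM in WT 11 and 462 CPM in cKO 8, within a range of 412 to 538 CPM over all libraries. Dbp, a clock gene driven through E-boxes, was at 71.4 CPM in WT 11 and 57.2 CPM in cKO 8, within its range of 47.3 to 84.5 CPM. The part of these in the Prok2 values was not tested.

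Nms ran from 0.148 CPM (WT 4) to a median of 0.512 and a highest value of 0.744 CPM (WT 11) in the libraries labelled WT. It was at 0.713, 0.245, 0.233, 0.427 and 0.533 CPM in cKO 8, 9, 12, 13 and 14. The libraries held 3 to 42 reads, and the groups covered much the same range. The difference was -0.038 (exact permutation p 0.758).

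Grp ran from 1.36 CPM (WT 11) to a median of 4.88 and a highest value of 6.14 CPM (WT 15) in the libraries labelled WT. It was at 3.36, 2.75, 7.60, 5.75 and 3.20 CPM in cKO 8, 9, 12, 13 and 14. As for Lhx1, the lowest library was WT 11 and the highest was cKO 12. The limma log2 fold change was 0.047 (95% interval -0.55 to 0.65, adjusted p 0.932). With the thalamus score its direction turned, to -0.59 (SE 0.17, adjusted p 0.0560).

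Vipr2, which encodes the VPAC2 receptor for Vip, was the member that fell. It was at 6.36 CPM (WT 15), a median of 7.07 and at most 12.4 CPM (WT 7) in the libraries labelled WT, on 143 to 479 reads. It was at 2.52, 4.22, 3.92, 5.27 and 7.28 CPM in cKO 8, 9, 12, 13 and 14, on 60 to 123 reads. Of the libraries labelled cKO, 4 of 5 lay under every library labelled WT, and cKO 14 lay inside the WT range. The means were 8.34 ± 2.22 CPM (SD, n = 7) and 4.64 ± 1.77 CPM (SD, n = 5), a ratio of 0.556. By limma the difference was -0.75 on the log2 scale (SE 0.19, 95% interval -1.17 to -0.34, adjusted p 0.0239), and the exact permutation p was 0.00631, where the smallest the design allows is 0.00126. The authors' deposited table lists Vipr2 at a log2 fold change of -0.85 with a false discovery rate of 0.0116, and the other 8 members had rates of 0.164 or more there.

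That is 1 of the 6 members tested, or 1 lower and 0 higher, read against 14.1% of all 15359 tested genes past the same limma threshold, where 7.6% were lower and 6.54% higher. The authors' deposited table has 4.94% of its genes past a false discovery rate of 0.05, and 3.3% past it and lower. Of the 9 members, 0 had groups with no overlap, against 6.73% of tested genes. In bulk tissue, fewer cells of a type and less RNA per cell cannot be told apart. Thalamic markers moved with Vipr2. Their sum over 10 genes was 1009 to 1770 CPM in the libraries labelled WT and 873 to 1166 CPM in those labelled cKO, and 3 of the 10, Prkcd, Ntng1 and Plekhg1, fell past the limma threshold while 0 rose. With the thalamus score as a covariate, Vipr2 was at -0.43 (SE 0.19, unadjusted p 0.0407, limma adjusted p 0.178). The genes of that score were themselves lower in the libraries labelled cKO, with a median log2 fold change of -0.50. Fits with the score thus also take out group difference shared with those genes, and cannot decide the difference of Vipr2 or of any other gene. Without WT 4, WT 5, cKO 12 and cKO 13 it was at -0.81 (SE 0.27, adjusted p 0.0832).

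**Figure D2:**
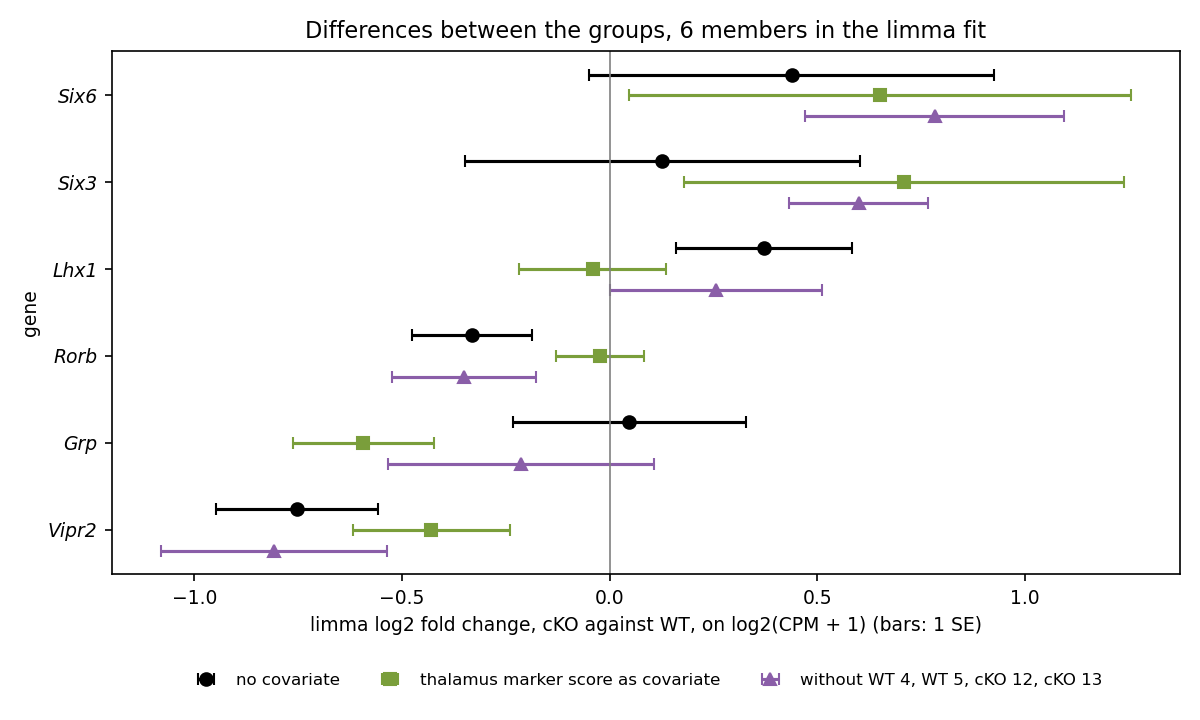
Log2 fold change of the libraries labelled cKO against WT, on the log2(CPM + 1) scale, for the 6 members in the limma fit; points are estimates, bars are 1 SE, and the 3 symbols are the fit without a covariate, with a thalamus marker score, and without WT 4, WT 5, cKO 12 and cKO 13. Vipr2 is below 0 in all 3 fits, at -0.75, -0.43 and -0.81, while Grp and Lhx1 change side of 0.

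Whether the members varied together from mouse to mouse was asked with the group means taken out. Pearson r was computed for all 36 pairs on deviations of log2(CPM + 1), with permutation within groups and p adjusted over the 36. Six3 and Prok2 fell into separate sets of libraries, so no pooled r is given for pairs with them, which left 21 pairs of 7 genes. Of these, r was negative in 13 and positive in 8. Of the 13 negative pairs 0 passed the adjusted threshold, and of the 8 positive pairs 1 did. The genes are described here by name and not as a measure of the amount of suprachiasmatic tissue.

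The pair past the threshold was Lhx1 with Grp. Their r was 0.915 (permutation p 0.00033, adjusted p 0.0119), and Spearman's rho on ranks with the group means removed was 0.869 (permutation p 0.00123, adjusted p 0.0443). Within the 7 libraries labelled WT r was 0.967 (exact permutation p 0.000198, the smallest that the permutations can give, adjusted p 0.00714). Without WT 11 and cKO 12, the farthest from the median of Lhx1, r was 0.731 (permutation p 0.0217, adjusted p 0.690). Without WT 4, WT 5, cKO 12 and cKO 13 it was 0.884 (permutation p 0.0236, adjusted p 0.269), so the pair did not pass with fewer mice in either case. Among all 15358 other tested genes, Lhx1 ranked 29th by r with Grp and Grp ranked 54th by r with Lhx1. In which cells Lhx1 and Grp varied together was not tested.

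Rorb went against both, with r of -0.801 with Grp (permutation p 0.00727, rho -0.280 with p 0.392) and -0.797 with Lhx1 (permutation p 0.00863, rho -0.210 with p 0.527). Neither passed after adjustment, at 0.0701 each, and r fell to -0.329 and -0.240 without WT 11 and cKO 12. Vip and Six6 had an r of -0.700 (permutation p 0.0263, adjusted p 0.0930, rho -0.583 with p 0.0742), and -0.600 without WT 4 and WT 5. Without WT 4, WT 5, cKO 12 and cKO 13 it was -0.151 (permutation p 0.733, rho 0.166 with p 0.721). Vip and Vipr2, peptide and receptor, had an r of -0.488 (permutation p 0.143, adjusted p 0.285, rho -0.474 with p 0.157), which became 0.00011 without WT 7 and cKO 14. Without the 4 libraries low in Oxt it was -0.759 (permutation p 0.0903, rho -0.780 with p 0.0528). Six6 and Six3 could be compared only within the 8 libraries above the gap in Six3, where r was 0.103 (exact permutation p 0.828) and rho was -0.057 (exact permutation p 0.939). Their shared pattern lay in the 4 libraries in which both were low.

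**Figure D3:**
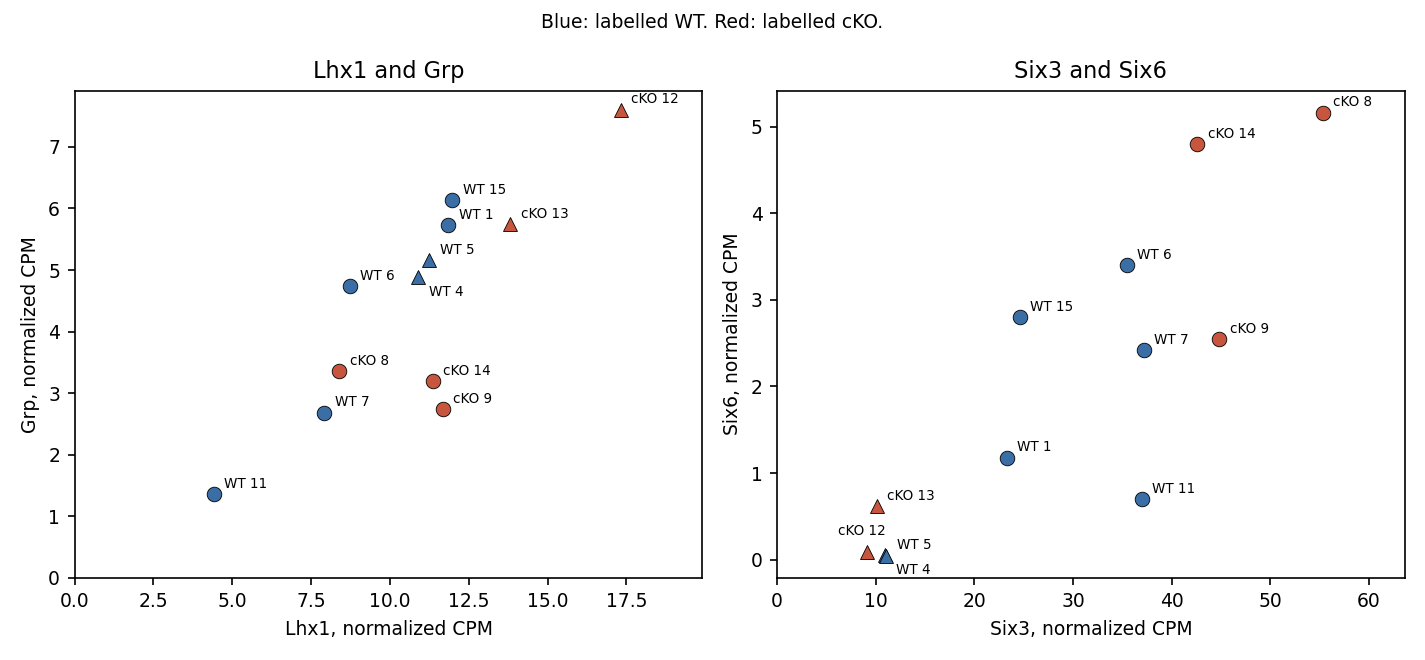
Normalized CPM of Grp against Lhx1 (left) and of Six6 against Six3 (right) in each library, blue for libraries labelled WT and red for cKO, with triangles for WT 4, WT 5, cKO 12 and cKO 13. Lhx1 and Grp run together from WT 11 to cKO 12, and Six3 leaves a gap between 11.1 and 23.3 CPM.

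The gene most like each member was taken as the non-member with the highest r of deviations over the 12 mice, among 15353 tested genes, which makes each r the largest of many. For Six3 and Prok2 the gene was found in the same way, but r is given only within the larger of their separate sets. For Six6 it was Sp8 (r = 0.969), a zinc finger factor of forebrain interneurons, at 1.91 to 8.11 CPM and lowest in WT 4, WT 5, cKO 12 and cKO 13. For Six3 it was Six3os1, the antisense transcript beside it, at 2.57 to 15 CPM (r = 0.944 within the 8 libraries above the gap). The strand setting of the counting is not given in the sources used here, so reads of Six3 and Six3os1 may not be separable. For Lhx1 it was Cubn (r = 0.975), for Rorb Frem3 (r = 0.958) and for Grp Gpr179 (r = 0.961). For Prok2 it was Pdzrn4 (r = 0.859 within the 10 libraries below the gap). Of these, WT 1 held 75 reads of Prok2 and the others 1 to 8, near the floor of 3 reads. Vip, Nms and Vipr2 were nearest to Tmc6 (r = 0.927), Txlnb (r = 0.897) and Pgam5 (r = 0.928).

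**Figure D4:**
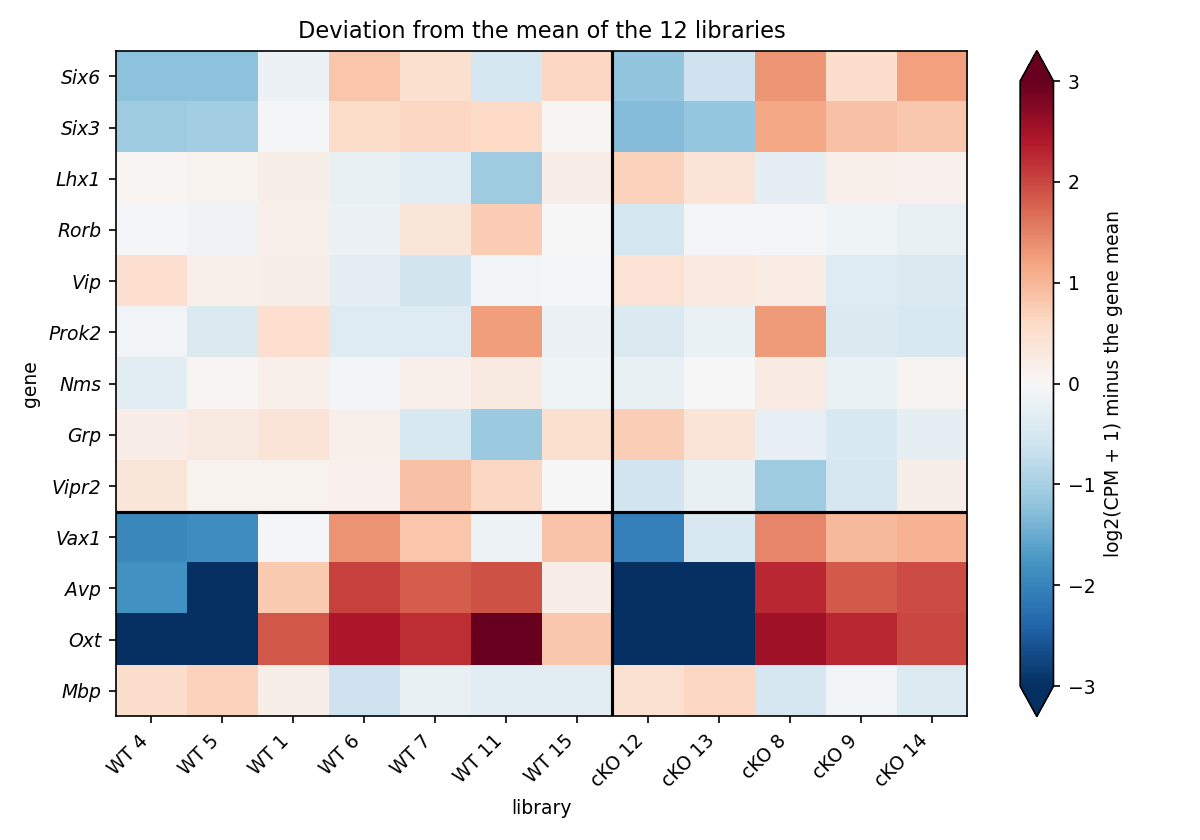
Deviation of log2(CPM + 1) from the mean of the 12 libraries for the 9 members (above the line) and for Vax1, Avp, Oxt and Mbp (below it), colours clipped at 3 log2 units. Six6, Six3, Vax1, Avp and Oxt are low in WT 4, WT 5, cKO 12 and cKO 13, whereas Lhx1, Grp and Vip are not.

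Partners of the members in peptide signalling were compared through a list of 12 genes, of which 7 were tested and 0 passed the limma threshold, where 14.1% of all tested genes passed. Prokr2, the receptor for prokineticin 2 in the brain, was at 1.81 to 13.2 CPM in the libraries labelled WT and at 2.52 to 5.15 CPM in those labelled cKO, and it was highest in WT 11. In cKO 8, where Prok2 was highest, Prokr2 was at 4.03 CPM. Its log2 fold change was -0.26 (SE 0.34). Nmur2, a receptor for neuromedin S, was at 0.991 to 1.70 CPM and 0.886 to 2.52 CPM, with the highest value in cKO 8. Grpr, the receptor for gastrin-releasing peptide, had a mean of 0.935 CPM and was not tested. Vipr1, the other receptor for Vip, was at -0.15 (SE 0.11, limma adjusted p 0.397). Adcyap1, which encodes the light-signalling peptide PACAP, was at -0.60 (SE 0.36, limma adjusted p 0.272). With the thalamus score as a covariate it was at -1.23 (SE 0.33, limma adjusted p 0.0449), the 1 gene of the 7 past the threshold in that fit, against 6.28% of all tested genes.

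Of 12 further genes linked to the nucleus, all tested, 1 rose and 2 fell by limma, against 6.54% higher and 7.6% lower among all tested genes. Rgs16, a regulator of G-protein signalling in clock cells, had means of 82.6 ± 20.2 CPM (SD, n = 7, WT) and 45 ± 14.3 CPM (SD, n = 5, cKO). It fell by 0.89 (SE 0.20, limma adjusted p 0.0143). Its groups did not overlap, with 65.1 to 119 CPM against 24.2 to 63.2 CPM. Calb1, the calcium-binding protein calbindin, fell by 0.55 (SE 0.16, limma adjusted p 0.0364). Gpr176, an orphan receptor of clock neurons, rose by 0.21 (SE 0.06, limma adjusted p 0.0240), from 17.1 to 21.5 CPM in the libraries labelled WT to 21.5 to 23.4 CPM in those labelled cKO. Calb1 kept the call in 4 of 12 fits that left out 1 mouse, and Gpr176 in 11 of 12. Calb1 was at -0.50 with the cortical score (limma adjusted p 0.0694). It stayed at -0.55 but lost the threshold over all genes above 0 (adjusted p 0.0724) and with robust eBayes (adjusted p 0.0510). Rgs16 and Calb1 are also thalamic genes. With the thalamus score Rgs16 was at -0.39 (SE 0.09, limma adjusted p 0.0248), Calb1 at -0.27 (adjusted p 0.280) and Gpr176 at 0.19 (adjusted p 0.108). In that fit 2 of the 12 passed, Rgs16 and the secretogranin gene Scg2 at -0.28 (limma adjusted p 0.0354, and 0.125 without the score), against 6.28% of all tested genes. Without WT 4, WT 5, cKO 12 and cKO 13 Rgs16, Calb1 and Gpr176 were at -0.62 (adjusted p 0.0724), -0.44 (adjusted p 0.0328) and 0.18 (adjusted p 0.0953). Vax1, a homeodomain factor of the anterior hypothalamus, was at 0.980 to 4.84 CPM in WT 4, WT 5, cKO 12 and cKO 13 and at 6.28 to 21.4 CPM in the others, and did not pass. The median log2 fold change of the 12 was -0.16, against 0.0092 over all tested genes.

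Among 7 paralogs of the transcription factors, 5 were tested and 1 fell, where 7.6% of all tested genes fell. Rora, the sister receptor of Rorb, had means of 187 ± 38.4 CPM (SD, n = 7) and 111 ± 23.5 CPM (SD, n = 5). It fell by 0.75 on the log2 scale (SE 0.15, limma adjusted p 0.00970). Lhx5, the sister of Lhx1, was at 7.85 to 13.6 CPM and 10.6 to 15.7 CPM and did not pass. With the thalamus score Rora was at -0.44 (adjusted p 0.0513), and without the 4 libraries low in Oxt at -0.67 (adjusted p 0.0642).

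Of 16 genes of the molecular clock, all tested, 0 rose and 3 fell, with a median log2 fold change of -0.14. Among all tested genes 14.1% passed and 7.6% fell. The repressor Nr1d1, which competes with ROR receptors, fell by 0.41 (SE 0.08, limma adjusted p 0.00836). Npas2, the partner of Arntl that can stand in for Clock, fell by 0.65 (SE 0.15, limma adjusted p 0.0154), and the repressor Bhlhe40 fell by 0.37 (SE 0.10, limma adjusted p 0.0246). Leaving out 1 mouse at a time, Bhlhe40 kept the call in 9 of 12 fits (limma adjusted p up to 0.0573). With the thalamus score 0 of the 16 passed, against 6.28% of all tested genes in that fit. Nr1d1 was then at -0.30 (adjusted p 0.0598), Npas2 at -0.37 (adjusted p 0.114) and Bhlhe40 at -0.20 (adjusted p 0.186). Without WT 4, WT 5, cKO 12 and cKO 13, 3 of the 16 passed, Nr1d1 among them at -0.44 (limma adjusted p 0.0115), against 10.3% of tested genes. Npas2 (-0.60, adjusted p 0.0701) and Bhlhe40 (-0.30, adjusted p 0.149) did not pass there.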

How the data were processed

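The authors deposited normalized CPM for 32494 genes in 12 libraries, and a test table with log2 fold changes, p-values and false discovery rates per gene. STAR 2.7.9a and featureCounts are among the tools in the submitters' processing notes; build, annotation and strand setting are not given in the sources used here. The deposited CPM were whole multiples of 1 step per library for 100% of values (tolerance 0.01 reads), so reads were recovered; 0 columns were unused. CPM are not counts, so the main test was limma 3.58.1 (R 4.3.3; lmFit, eBayes with trend) on log2(CPM + 1), which understates changes of low genes, over the 15359 genes averaging 1 CPM or more, with Benjamini-Hochberg adjustment and a threshold of 0.05. It was tested on simulated data. edgeR 4.0.16 (quasi-likelihood) on recovered reads called 2098 genes, and DESeq2 1.42.0 called 2747. Single genes were compared by an exact permutation test over 792 splits, two-sided, and correlations by 100000 permutations within groups, or exactly where so stated. Marker scores averaged log2(CPM + 1) across the genes listed for a tissue.

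Exon lengths came from GENCODE M21, which may differ from the authors' annotation. Grouping followed the sample titles, and genotypes in the labels gave identical groups. Whether the libraries differ by batch is not given in the sources used here. The members, lists and tests were chosen with earlier results of these data known. Named genes were the members, Smc3, listed genes past the threshold or paired with a member as ligand or receptor, and the gene most like each member. Thalamic, cortical, clock and other genes named beside a result, and the alternative without WT 4, WT 5, cKO 12 and cKO 13, were chosen after their values were seen. Marker lists of striatum and of ependyma and choroid plexus had 0 of 8 and 0 of 7 tested genes past the threshold, the cortical list 0 of 9, the myelin list 0 of 8 and the hypothalamus list 1 of 14 (Sim1), against 14.1% of all tested genes.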

Additional observations from a re-analysis of the deposited data

Results flagged for a closer look

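Each member was examined in each group for a library far from the others, on the log2(CPM + 1) scale. Of 18 groups of values, 2 held such a library, where chance gives about 0.9. Lhx1 in WT 11 was at 4.42 CPM, the lowest of the libraries labelled WT, with WT 7 next at 7.92 CPM. Prok2 in cKO 8 was at 2.56 CPM, the highest of the libraries labelled cKO, with cKO 13 next at 0.285 CPM.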

How the results depend on the processing

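No paired analysis was possible because the groups share no replicate number. Vipr2 kept its direction in all 14 alternatives (-0.88 to -0.43), and lost the limma threshold with the thalamus score (-0.43, adjusted p 0.178) and without WT 4, WT 5, cKO 12 and cKO 13 (-0.81, adjusted p 0.0832); leaving out 1 mouse at a time gave -0.91 to -0.60 with adjusted p up to 0.0499. Six3 turned with the hypothalamus score (-0.24), as did Six6 (-0.0033), and without those 4 libraries, its own low set, Six3 gained the threshold (0.60). Lhx1 turned with the thalamus score (-0.041) and Grp with that score (-0.59), with the cortical score (-0.11), with arrayWeights (-0.43) and without the 4 libraries (-0.21). Rorb gained the threshold with arrayWeights (-0.34, adjusted p 0.0307). Vip was at -0.040 without the 4 libraries and Nms at 0.021 after quantile normalization. With the same direction, Six6 was at 0.76 with a pseudocount of 0.1 and at 0.80 by edgeR and by DESeq2, Six3 at 0.33 by both and at 0.46 with arrayWeights, Lhx1 at 0.097 with arrayWeights, and with a pseudocount of 0.1 Prok2 was at -0.43, Vip at 0.069 and Nms at -0.090; Vip was at 0.11 after quantile normalization and Prok2 at -0.063. Leaving out 1 mouse gave 0.17 (without cKO 8) to 0.80 (without cKO 12) for Six6, 0.22 (without WT 11) to 0.49 for Lhx1, -0.15 to 0.47 for Six3, -0.14 to 0.17 for Grp, -0.055 to 0.16 for Vip, -0.43 to 0.10 for Prok2 and -0.11 to 0.013 for Nms. Genes past the threshold numbered 2172, and 5126 with arrayWeights, 965 with the thalamus score, and 1158 (without WT 1) to 2302 when 1 mouse was left out; with median centring 56.6% of calls were higher, against 46.2%. Member pairs past the threshold numbered 0 without the 2 farthest mice and 0 without the 4 libraries. In the latter case the permutations are too few for 1 pair alone to pass. Of 208 values for Smc3 and the 7 genes of the nucleus, paralog and clock lists past the threshold, 182 kept the call, 26 lost the threshold with the same direction and 0 turned; Calb1 lost it in 8 of the 12 fits that left out 1 mouse. For these changes the cause was not tested. A mean of at least 5 CPM gave no value for Six6 or Grp. Reads of 1 to 79 a library limit Vip, Prok2 and Nms.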

Other observations

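WT 11, the library lowest in Lhx1 and Grp and highest in Rorb, was also lowest in both peptides of lateral hypothalamic neurons. Hcrt, which encodes the orexins, was at 0.372 CPM there and at 10.4 CPM or more in the other 11 libraries. Pmch, which encodes melanin-concentrating hormone, was at 1.03 CPM there and at 14.4 CPM or more in the others. Gbx2, a thalamic transcription factor, was at 68.7 CPM in WT 11, the highest of the 12 libraries, with WT 7 next at 40.3 CPM.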
